A study of Rattus norvegicus with 3 samples.

Results

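The potassium channel genes of the rat basolateral amygdala (BLA) were taken as every protein-coding gene whose symbol starts with Kcn, other than Kcne2 and Kcnj13, with a mean above 1 scaled count over the 3 libraries. This rule gave 86 genes of 16775 coding genes above the same level, and all 86 genes that carried such a name passed the level, so none was lost to it. By subunit type they fell into 37 voltage-gated pore subunits and modifiers, 11 auxiliary subunits of voltage-gated channels, 13 inward rectifiers, 14 two-pore channels, 8 calcium-activated subunits and 3 genes of sodium-activated channels and Slo3. The question put to the data was whether these classes differed in RNA level between rats in enrichment, rats taken out of it and rats that never had it. Kcnd2 was not analysed here.

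Tissue came from adult male Sprague-Dawley rats, which were 8 weeks old on arrival. ER (enrichment removal) rats had 4 weeks of enrichment and were then moved to single cages, with brains collected 2 weeks after removal. EE (environmental enrichment) rats spent their active cycle in a large cage of 10 rats with toys and shelters, and were kept singly by day. SH (standard housing) rats lived in pairs in ordinary cages. RNA from BLA punches of 10 rats was pooled in proportion into 1 library for each condition, so the spread between rats was not measured, no p-value can be given, and social housing cannot be told apart from enrichment or its removal. The contrasts were EEvSH, ERvSH and ERvEE, and in each the second-named library is the denominator of the ratio.

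Potassium channels let potassium ions leave a cell or, near rest, enter it, and so set the resting potential and how quickly and how often a neuron fires. Voltage-gated channels open as the membrane depolarises and end the action potential. Inward rectifiers and two-pore leak channels act near rest, and calcium-activated and sodium-activated channels open when those ions build up during firing. In the amygdala, as elsewhere in the forebrain, principal neurons, interneurons and glia use different sets of these subunits. A bulk punch adds them together, so a higher share of a cell type and more RNA per cell cannot be told apart.

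Values are scaled counts, that is, reads divided by the size factor of the library. The libraries held 29558555 (ER), 29263063 (EE) and 30334384 (SH) reads in 19113 listed genes. Each ratio is given with its exact 95% Clopper-Pearson interval, which compares 2 libraries and covers counting error only. A gene is called higher or lower where this interval leaves out 1, and it met the size rule where the ratio was in addition at least 1.5-fold either way. The scaled counts depend on transcript length, so the genes are compared between libraries and not with each other. The projection neuron genes Slc17a7, at 58098 (ER), 57766 (EE) and 57756 (SH) scaled counts, and Rspo2, at 1800 (ER), 1952 (EE) and 1817 (SH), were present in each library, as were all 14 measured markers of glutamatergic neurons.

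Potassium channel RNA as a whole was nearly level across the libraries. The 86 genes summed to 105904 scaled counts in ER, 106366 in EE and 106196 in SH. The sum in EE was 1.002 times that in SH (interval 0.993 to 1.01), the sum in ER was 0.997 times that in SH (0.989 to 1.01), and the sum in ER was 0.996 times that in EE (0.987 to 1.004). The median log2 ratio of the genes was 0.01 in EEvSH, 0.02 in ERvSH and −0.02 in ERvEE, against medians of 0.00 in each contrast over all coding genes. A mean of 50 scaled counts or more was reached by 70 genes, and 62 of them (88.6%) stayed within 25% in every contrast, against 90.2% of the 13386 coding genes at that level.

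Single genes did stand apart. In EEvSH 5 of 86 genes (5.81%) met the size rule as higher, where 1.19% of all coding genes did, and 0 met it as lower, where 0.942% did. The 5 were Kcnh5, Kcnh8, Kcne4, Kcnj15 and Kcnn4, and only Kcnh5 had a mean of at least 50 scaled counts. At that level 1 of 70 potassium channel genes (1.43%) met the rule as higher, against 0.583% of all genes. In ERvSH 0 genes met it as higher, against 0.817% of all genes, and 1 gene (1.16%), Kcnk18, as lower, against 0.864%. In ERvEE 0 genes met it as higher, against 0.775% of all genes, and 1 gene (1.16%), Kcnh8, as lower, against 0.924%.

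Calls by the interval alone, which include the genes that met the size rule, came at shares near those of other genes. In EEvSH 10 genes (11.6%) were higher and 6 (6.98%) lower, against 9.27% and 8.94% of all coding genes. In ERvSH 6 genes (6.98%) were higher and 9 (10.5%) lower, against 7.59% and 7.89%. In ERvEE 4 genes (4.65%) were higher and 8 (9.30%) lower, against 6.47% and 6.50%. In all, 30 genes had an interval that left out 1 in at least 1 contrast, and 56 had none. The contrasts share libraries, so a gene that is high in EE alone enters both EEvSH and ERvEE.

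**Figure D1:**
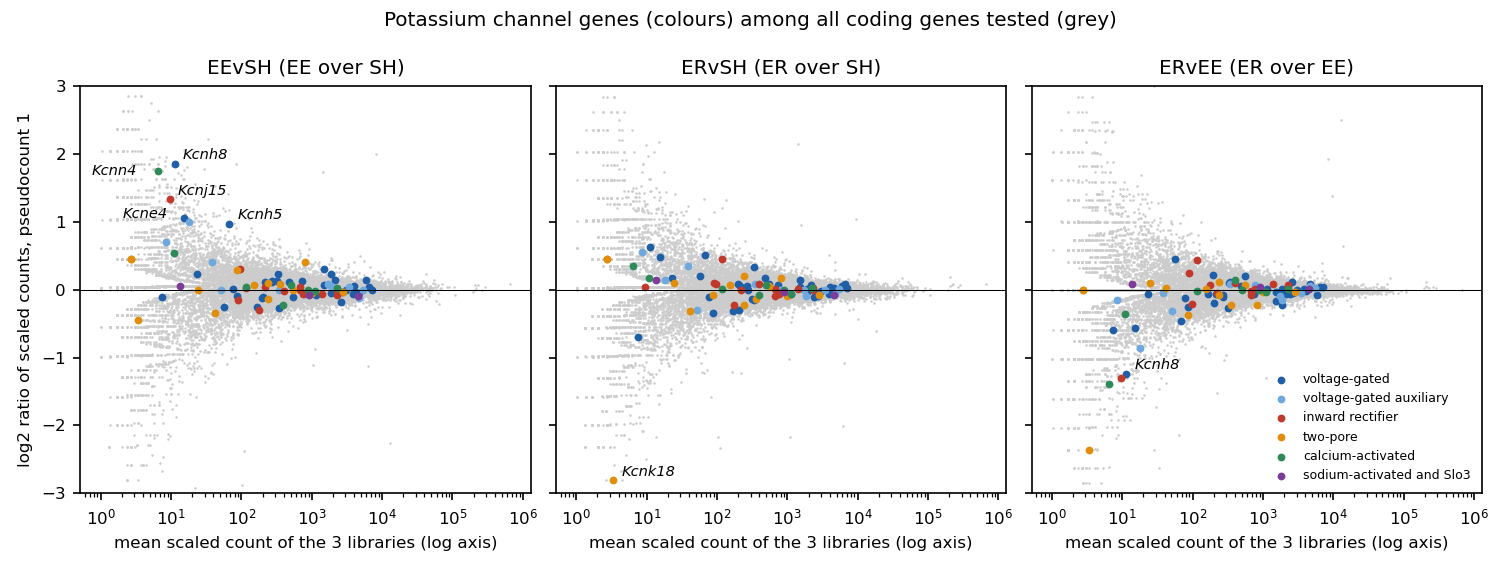
Log2 ratio of scaled counts with a pseudocount of 1 (y axis) against the mean scaled count of the 3 libraries (x axis, log scale) for each coding gene (grey) and the potassium channel genes (colours, by class), with the genes that met the size rule named. The coloured points lie within the grey cloud along 0, and the 5 genes named in EEvSH lie toward its upper edge; the position of Kcnk18 in ERvSH depends on the pseudocount, since ER had 0 reads, and 26 (EEvSH), 32 (ERvSH) and 24 (ERvEE) other genes lie outside the y axis.

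Among the 37 voltage-gated genes EEvSH had 6 higher and 3 lower, ERvSH 4 of each, and ERvEE 3 higher and 5 lower. The matching shares of all coding genes were 9.27% higher and 8.94% lower (EEvSH), 7.59% and 7.89% (ERvSH), and 6.47% and 6.50% (ERvEE). Kcnh5 (ENSRNOG00000009542), which encodes a channel of the ether-a-go-go (EAG) type, had 65.7 (ER), 91.0 (EE) and 45.8 (SH) scaled counts. EE was 1.99-fold above SH (1.38 to 2.90). ER lay between them, with an ERvSH ratio of 1.43 (0.966 to 2.14) and an ERvEE ratio of 0.722 (0.515 to 1.01), whose intervals include 1. Kcnh1 (ENSRNOG00000003841), the other EAG gene, had 1781 (ER), 2080 (EE) and 1775 (SH) scaled counts. EE was again the highest library, at 1.17-fold over SH, with a lower bound of 1.10, and ER was at the level of SH, with ratios of 1.003 against SH (0.939 to 1.07) and 0.856 against EE (0.802 to 0.913).

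Kcnh8, an ELK (EAG-like) channel gene, was counted in few reads. It had 8.21 (ER), 20.7 (EE) and 4.98 (SH) scaled counts, from 8 reads in ER, 20 in EE and 5 in SH. The EEvSH ratio of 4.15 had a wide interval (1.51 to 14.2), and the ERvEE ratio was 0.397 (0.151 to 0.941). Of the other ELK genes Kcnh3, at 3836 (ER), 3809 (EE) and 3989 (SH), was lower in EE than in SH by a small margin (0.955, 0.913 to 0.999), and under TMM scaling its interval includes 1. Kcnh4 had 266 (ER), 281 (EE) and 257 (SH) scaled counts with intervals that include 1 throughout. The related ERG genes, whose channels shape slow repolarisation and firing adaptation, include Kcnh2, the rat gene of the channel called hERG in humans, which had 1127 (ER), 1118 (EE) and 1174 (SH). Of these, Kcnh6 was lower in ER than in SH, at 181 (ER), 207 (EE) and 223 (SH), with a ratio of 0.809 (0.661 to 0.990). Kcnh7 had 214 (ER), 223 (EE) and 207 (SH), and its intervals include 1.

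The Kv1 channels sit on axons and their terminals and hold back repeated firing. Their 7 genes summed to 14327 (ER), 14402 (EE) and 13629 (SH) scaled counts, and the sum was above SH in both housing groups that had enrichment, at 1.05-fold for ER (1.03 to 1.08) and 1.06-fold for EE (1.03 to 1.08). Both large contributors to the sum showed a difference. Kcna2, a main axonal subunit, had 6706 (ER), 6496 (EE) and 6346 (SH), and was higher in ER than in SH (1.06, 1.02 to 1.09). Kcna6 had 5853 (ER), 6186 (EE) and 5629 (SH), with EE above SH (1.10, 1.06 to 1.14) and ER below EE (0.946, 0.912 to 0.981). ER was also above SH (1.04, 1.002 to 1.08), though under scaling by library totals that interval includes 1.

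Kcna3, a subunit known from lymphocytes and microglia as well as neurons, had the largest ERvSH ratio of this family. It had 368 (ER), 342 (EE) and 293 (SH) scaled counts, with an ERvSH ratio of 1.26 (1.08 to 1.47) and an EEvSH ratio of 1.17 (0.996 to 1.37). The 16 microglia markers summed to 17649 (ER), 17486 (EE) and 18204 (SH) scaled counts, with none at 0 in a library. In ERvSH 0 of 16 were higher and 2 of 16 lower, against 7.59% and 7.89% of all coding genes. The part of microglia in the value of Kcna3 was not tested. Kcna4, whose channels inactivate fast, was higher in ER than in EE, at 584 (ER), 509 (EE) and 551 (SH), with a ratio of 1.15 (1.02 to 1.30). Kcna1, an axonal subunit whose human gene is linked to episodic ataxia, had 737 (ER), 771 (EE) and 705 (SH), and its intervals include 1, as do those of Kcna5 and Kcna7.

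The Kv3 channels allow neurons to fire fast and are prominent in interneurons that express parvalbumin. Their 4 genes differed in which library was highest. Kcnc2 was higher in EE than in SH, at 2139 (ER), 2237 (EE) and 2035 (SH), with a ratio of 1.10 (1.03 to 1.17). Kcnc4 was the reverse, at 2631 (ER), 2429 (EE) and 2763 (SH), with EE below SH (0.879, 0.831 to 0.929) and ER above EE (1.08, 1.02 to 1.15). Kcnc1, which with Kcnc2 is the main Kv3 gene of fast-spiking cells, was close to level at 3014 (ER), 3022 (EE) and 3039 (SH), with an EEvSH ratio of 0.994 (0.945 to 1.05), and Pvalb itself had 907 (ER), 971 (EE) and 946 (SH).

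Kcnd3, which encodes an A-type channel that opens below the firing threshold, had 4068 (ER), 4080 (EE) and 4186 (SH) scaled counts. The 5 KCNQ genes, some of which form the M-current that acetylcholine turns off, summed to 12891 (ER), 12789 (EE) and 12611 (SH). None of these 6 genes had an interval that left out 1. Among them Kcnq3, a subunit of the M-current channel, had 1519 (ER), 1548 (EE) and 1474 (SH) scaled counts and an EEvSH ratio of 1.05 (0.977 to 1.13), so counting error left room for at most a 1.13-fold gain in EE over SH.

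The modifier subunits make no working channel alone, and assemble with Kv2 subunits. They held several of the differences of the class, in both directions. Kcnv1 (ENSRNOG00000004117) was highest in EE, at 1501 (ER), 1677 (EE) and 1358 (SH), with an EEvSH ratio of 1.23 (1.15 to 1.33), an ERvSH ratio of 1.10 (1.03 to 1.19) and an ERvEE ratio of 0.895 (0.833 to 0.961). Here each library differed from each other one beyond counting error, in the order EE, ER, SH. Kcnv2, its relative, had 14.4 (ER), 21.7 (EE) and 9.96 (SH) scaled counts, and an EEvSH ratio of 2.18 whose interval includes 1 (0.983 to 5.19).

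Among the other modifiers Kcns1, Kcng2, Kcnf1 and Kcng1 were highest in SH. Kcns1 had 153 (ER), 160 (EE) and 191 (SH), and was lower in ER than in SH (0.799, 0.641 to 0.995). Kcng2 had 334 (ER), 309 (EE) and 371 (SH), and was lower in EE than in SH (0.832, 0.712 to 0.972). Kcnf1 and Kcng1 showed smaller gaps between ER and SH, with ratios of 0.938 (0.888 to 0.990) and 0.931 (0.879 to 0.986). Kcns2 was lowest in ER, at 290 (ER), 348 (EE) and 320 (SH), and its ERvEE ratio was 0.833 (0.709 to 0.979). Kcns3 had 211 (ER), 182 (EE) and 199 (SH), and Kcng4 had 267 (ER), 288 (EE) and 268 (SH), with intervals that include 1 for both.

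**Figure D2:**
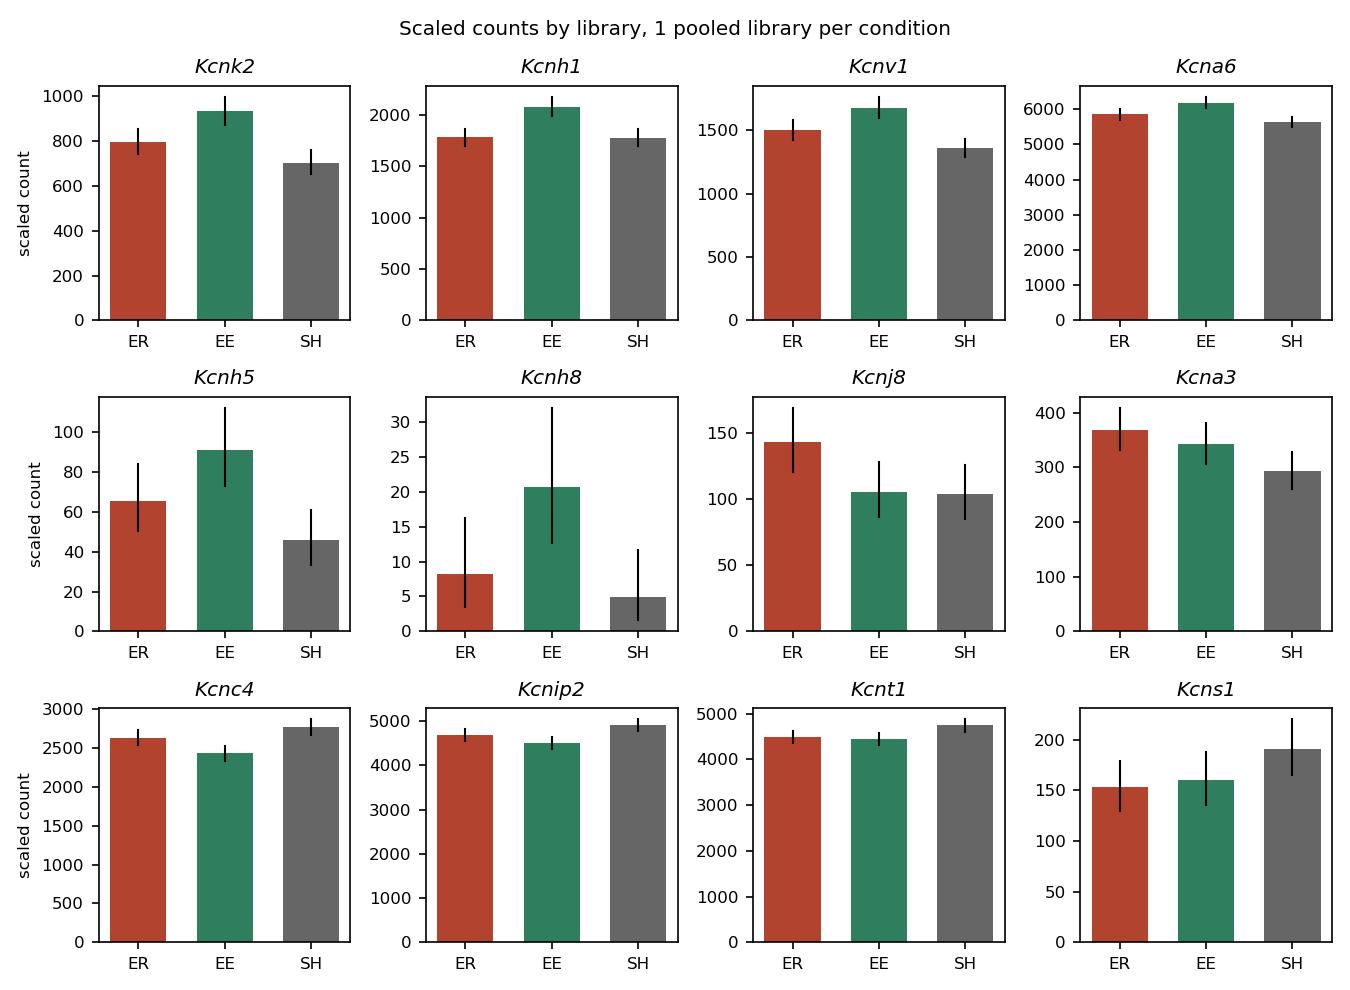
Scaled counts (y axis, from 0, with its own scale for each gene) in the ER, EE and SH libraries for 12 potassium channel genes, with bars for the value of the 1 pooled library and lines for its exact 95% Poisson interval, which covers counting error only. Kcnk2, Kcnh1, Kcnv1, Kcna6, Kcnh5 and Kcnh8 are highest in EE, Kcnj8 and Kcna3 are highest in ER, and Kcnc4, Kcnip2, Kcnt1 and Kcns1 are highest in SH.

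Auxiliary subunits set the amount and the kinetics of voltage-gated channels at the membrane. The 11 genes summed to 18221 (ER), 18346 (EE) and 18508 (SH) scaled counts, and the sum was 0.991 times that of SH in EE (0.971 to 1.01) and 0.985 times that of SH in ER (0.964 to 1.01). The KChIP proteins are calcium sensors that bind Kv4 channels. Kcnip2 was highest in SH, at 4691 (ER), 4516 (EE) and 4908 (SH), and was lower than SH in EE (0.920, 0.883 to 0.959) and in ER (0.956, 0.918 to 0.995). Kcnip4 was lowest in ER, at 1757 (ER), 1960 (EE) and 1882 (SH), with ratios of 0.934 against SH (0.874 to 0.997) and 0.896 against EE (0.839 to 0.957).

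The remaining KChIP genes and the Kv beta genes were closer to level. Kcnip3, whose product is also a transcriptional repressor, had 1683 (ER), 1789 (EE) and 1685 (SH) scaled counts. Kcnip1 had 790 (ER), 755 (EE) and 793 (SH). Kcnab1 and Kcnab2 encode Kv beta subunits, which bind Kv1 channels, and Kcnab2 had 5450 (ER), 5373 (EE) and 5393 (SH), with ratios between 0.996 and 1.01. Kcne4, of the KCNE family of small membrane proteins, met the size rule in EEvSH on few reads, at 14.4 (ER), 26.9 (EE) and 12.9 (SH) scaled counts and a ratio of 2.08 (1.03 to 4.40). Kcne5, of the same family, had 44.1 (ER), 54.8 (EE) and 54.8 (SH).

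Among the inward rectifiers 1 gene was higher in each contrast and 0 were lower. Over all coding genes 6.47% to 9.27% were higher and 6.50% to 8.94% lower, depending on the contrast. The 13 genes summed to 9327 (ER), 9056 (EE) and 9313 (SH) scaled counts, and the sum ratio was 0.972 in EEvSH, with an interval (0.944 to 1.001) that includes 1. Kcnj3, Kcnj6 and Kcnj9 form the GIRK channels, through which transmitters such as GABA and serotonin silence neurons by way of G proteins. Kcnj9 had 2338 (ER), 2228 (EE) and 2355 (SH), with an EEvSH ratio of 0.946 (0.892 to 1.003). Kcnj3 had 1439 (ER), 1363 (EE) and 1426 (SH), and Kcnj6 had 751 (ER), 746 (EE) and 781 (SH). EE was the lowest library for each of the 3 genes, and none of the gaps went beyond counting error.

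Kcnj8 was the inward rectifier with the clearest difference. It encodes a pore subunit of ATP-sensitive channels that in rodent brain marks pericytes, and had 143 (ER), 105 (EE) and 104 (SH) scaled counts. ER stood above both other libraries, at 1.38-fold over SH (1.06 to 1.79) and 1.35-fold over EE (1.04 to 1.76), whereas EE and SH differed by 1.02-fold (0.767 to 1.35). The 14 measured endothelial and pericyte markers summed to 8962 (ER), 8879 (EE) and 8693 (SH), with none at 0 in a library. In ERvSH 1 was higher and 1 lower, against 7.59% and 7.89% of all coding genes. In ERvEE 2 were higher and 1 lower, against 6.47% and 6.50%. Among them the mural cell gene Rgs5 had 857 (ER), 877 (EE) and 759 (SH). Pdgfrb had 1329 (ER), 1165 (EE) and 1274 (SH), and was higher in ER than in EE (1.14, 1.05 to 1.24). Acta2 had 255 (ER), 356 (EE) and 331 (SH). It was lower in ER than in SH (0.773, 0.653 to 0.913) and than in EE (0.718, 0.608 to 0.848). Whether the share of such cells moved Kcnj8 was not tested.

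The other ATP-sensitive pore gene, Kcnj11, which is the neuronal form, had 647 (ER), 684 (EE) and 689 (SH) scaled counts with intervals that include 1. Kcnj10 is the main potassium-buffering channel of astrocytes, and had 673 (ER), 684 (EE) and 667 (SH), with an EEvSH ratio of 1.03 (0.920 to 1.14). Its partner Kcnj16 had 170 (ER), 162 (EE) and 199 (SH), with an EEvSH ratio of 0.815 (0.657 to 1.01). The 16 astrocyte markers had 170499 (ER), 174104 (EE) and 173785 (SH) summed scaled counts. Kcnj2 and Kcnj4 encode strong rectifiers that hold the resting potential. Kcnj2 had 93.3 (ER), 109 (EE) and 87.6 (SH), and Kcnj4 had 2336 (ER), 2264 (EE) and 2299 (SH), with intervals that include 1. Kcnj15 was counted in few reads, and is given with the low genes.

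In the two-pore class the clearest difference was that of Kcnk2 (ENSRNOG00000002653), the gene of TREK-1, a leak channel that responds to stretch, lipids and volatile anaesthetics. Kcnk2 had 795 (ER), 932 (EE) and 703 (SH) scaled counts. EE was 1.32-fold above SH (1.20 to 1.46), ER was 1.13-fold above SH with a lower bound of 1.02, and the ERvEE ratio was 0.853 (0.774 to 0.940). As for Kcnv1, and with smaller gaps for Kcna6, the order was EE, ER, SH, with each step beyond counting error. Its relative Kcnk4, which encodes TRAAK, did not follow it, at 972 (ER), 998 (EE) and 1034 (SH) and an EEvSH ratio of 0.965 (0.883 to 1.05). Kcnk10, the TREK-2 gene, had 156 (ER), 155 (EE) and 148 (SH). Its EEvSH interval (1.05, 0.828 to 1.32) was too wide to tell.

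Further two-pore genes showed small gaps or none. Kcnk1, the TWIK-1 gene, had 2744 (ER), 2815 (EE) and 2896 (SH) scaled counts, and was lower in ER than in SH (0.948, 0.899 to 0.999), though under TMM scaling its interval includes 1. Kcnk3 and Kcnk9 encode the acid-sensitive TASK leak channels. Kcnk3 had 324 (ER), 378 (EE) and 357 (SH), and was lower in ER than in EE (0.857, 0.735 to 0.999), and Kcnk9 had 564 (ER), 539 (EE) and 541 (SH). Kcnk13, the gene of THIK-1, the main resting channel of microglia in mice, had 78.0 (ER), 101 (EE) and 82.7 (SH), with an EEvSH ratio of 1.23 (0.906 to 1.66). The class summed to 6185 (ER), 6465 (EE) and 6328 (SH), with a sum ratio of 0.957 in ERvEE (0.923 to 0.991).

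Kcnk18, the gene of TRESK, which is best known from sensory neurons, was near the limit of the counting. It had 0 reads in ER, which allows up to 3, against 4 in EE and 6 in SH. The interval of the ratio left out 1 against SH (upper bound 0.875) and included it against EE. Kcnk7 and Kcnk16 had at most 3.10 scaled counts in any library.

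The calcium-activated class was level apart from genes of the SK and IK type, small and intermediate conductance channels that produce the afterpotential behind spike frequency adaptation. Kcnma1, the pore gene of the large conductance BK channel, had 2274 (ER), 2269 (EE) and 2234 (SH) scaled counts, with an EEvSH ratio of 1.02 (0.957 to 1.08). Its brain auxiliary subunit Kcnmb4 had 1087 (ER), 1118 (EE) and 1133 (SH). Kcnn1 and Kcnn2 were level too, with Kcnn2 at 888 (ER), 888 (EE) and 895 (SH). Kcnn3 was lower in EE than in SH, at 401 (ER), 362 (EE) and 425 (SH), with a ratio of 0.851 (0.737 to 0.982). The 8 genes summed to 5290 (ER), 5289 (EE) and 5301 (SH), and the sum ratio in EEvSH was 0.998 (0.960 to 1.04).

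The sodium-activated channels were highest in SH. Kcnt1, which encodes Slack, had 4487 (ER), 4445 (EE) and 4744 (SH) scaled counts, and was lower than SH in EE (0.937, 0.899 to 0.977) and in ER (0.946, 0.908 to 0.986). Kcnt2, which encodes Slick, had 911 (ER), 887 (EE) and 932 (SH), in the same order but with intervals that include 1. Kcnu1, the Slo3 gene, known from sperm, had 12.9 to 14.4 scaled counts. The sum of the 3 genes followed Kcnt1, at 0.940 in EEvSH (0.905 to 0.976) and 0.951 in ERvSH (0.916 to 0.988).

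**Figure D3:**
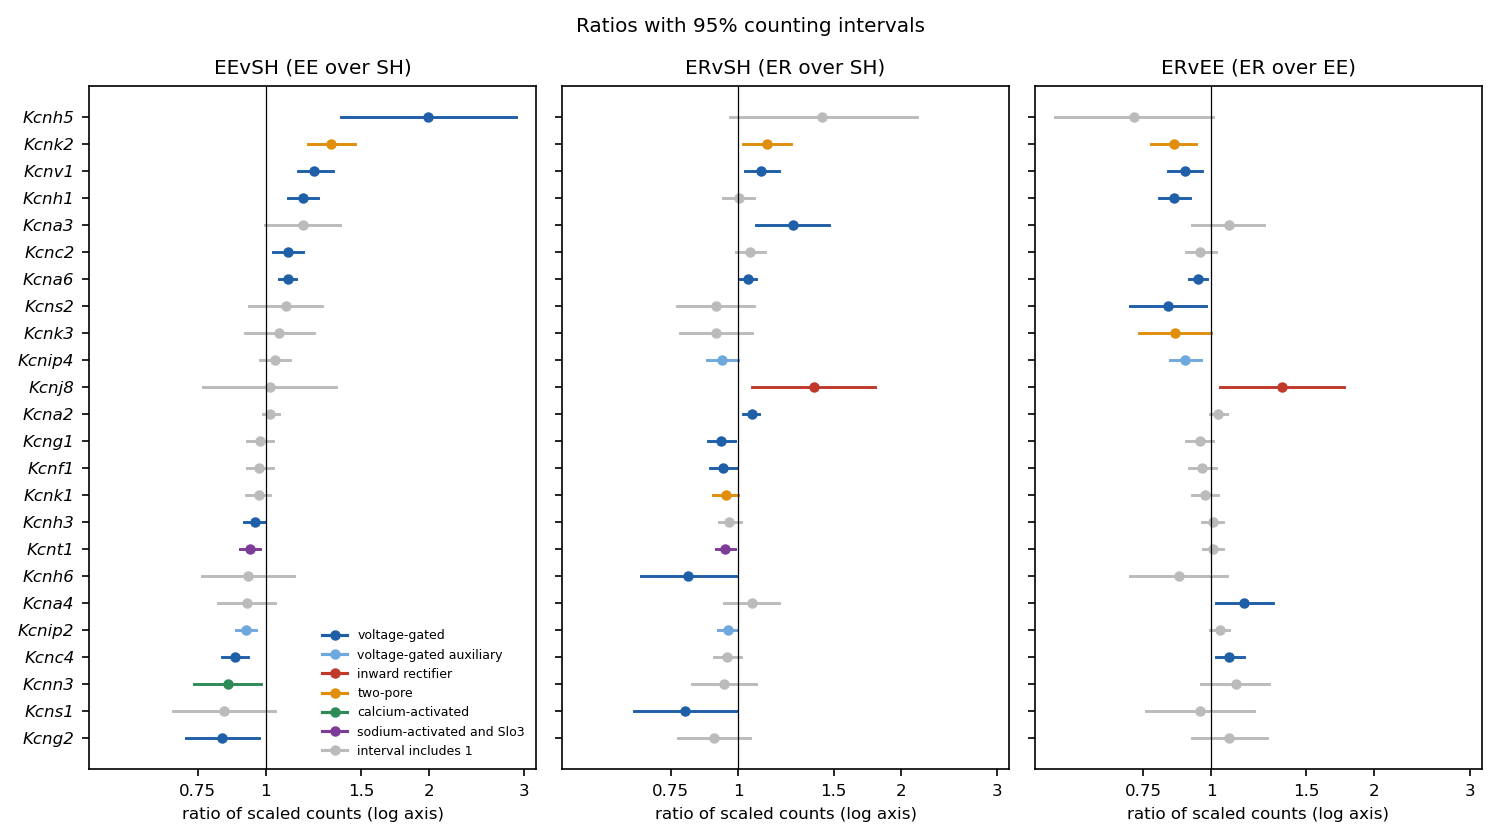
Ratio of scaled counts (x axis, log scale) with its exact 95% Clopper-Pearson counting interval (line) in EEvSH, ERvSH and ERvEE for 24 of the 25 potassium channel genes with a mean of at least 50 scaled counts and an interval that leaves out 1 in any contrast, ordered by EEvSH ratio, with class colours where the interval leaves out 1 and grey where it includes it. Kcnh5 is the one gene beyond 1.5-fold in EEvSH (1.99), Kcnk2, Kcnv1 and Kcna6 are to the right of 1 in EEvSH and ERvSH and to the left in ERvEE, and Kcnj8 is to the right of 1 in ERvSH and ERvEE.

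Set side by side, the classes had medians close to 0. In EEvSH the median log2 ratio was 0.02 for the voltage-gated, −0.01 for the inward rectifier, 0.03 for the two-pore and 0.03 for the calcium-activated genes. In ERvSH it was 0.03, 0.01, −0.01 and 0.02 in the same order of classes, and in ERvEE −0.06, 0.05, −0.02 and −0.01. With 1 library per condition the differences between classes could not be tested. By interval, EEvSH had 6 of 37 voltage-gated genes higher and 3 lower, against 1 and 0 of 13 inward rectifiers, 1 and 0 of 14 two-pore genes and 1 and 1 of 8 calcium-activated genes. Over all coding genes 9.27% were higher and 8.94% lower. The sum of the voltage-gated class was 1.01 in EEvSH (1.002 to 1.02), and that of the sodium-activated and Slo3 genes was the one class sum below 1 beyond counting error in EEvSH and in ERvSH.

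**Figure D4:**
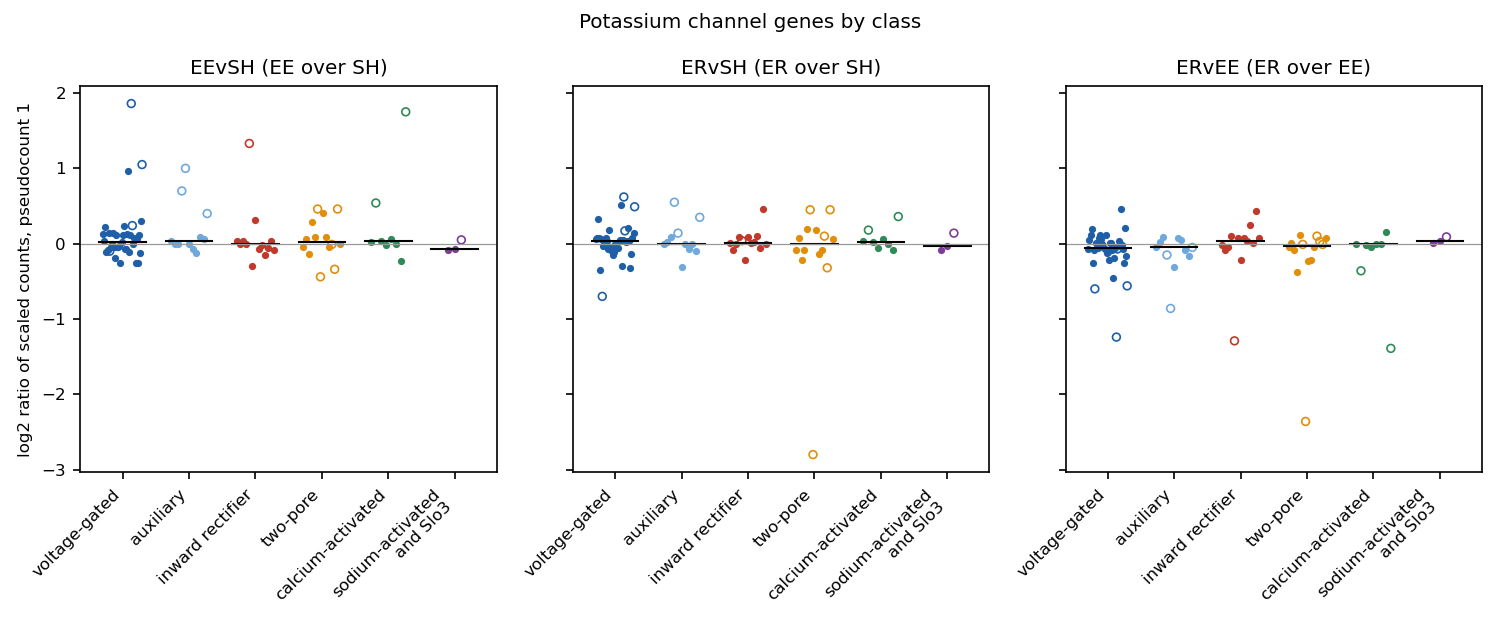
Log2 ratio of scaled counts with a pseudocount of 1 (y axis) for each potassium channel gene by class (x axis) in EEvSH, ERvSH and ERvEE, with filled points for genes with a mean of at least 50 scaled counts, open points for lower ones and a bar for the class median. The medians lie between −0.07 and 0.05 throughout, and nearly all points far from 0 are open.

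The genes not yet described mostly had intervals that include 1. In all, 45 genes with a mean of at least 50 scaled counts had no interval that left out 1. They summed to 54230 (ER), 54033 (EE) and 54128 (SH). These genes were picked by their intervals, so a near-level sum follows largely from the choice. Several had gaps that their counts could not resolve. Kcnj5, another GIRK subunit gene, had 97.5 (ER), 81.7 (EE) and 90.6 (SH) scaled counts, with an ERvEE ratio of 1.19 (0.876 to 1.63). Kcnd1, a Kv4 gene like Kcnd3, had 509 (ER), 489 (EE) and 450 (SH), and its ERvSH ratio of 1.13 (0.993 to 1.29) came close to leaving out 1. Kcnk12, the THIK-2 gene, ran the other way, at 223 (ER), 236 (EE) and 260 (SH), with an ERvSH ratio of 0.856 (0.712 to 1.03).

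The genes with few reads leaned toward EE. There were 16 potassium channel genes with a mean under 50 scaled counts, and EE was the highest library for 11 of them (68.8%), against 38.7% of the 3389 coding genes at that level. For Kcnk7 and Kcnk16 this was a tie, with 3 reads in both ER and EE, and without ties in reads EE was highest for 9 of the 16 (56.2%), against 30.5% of those coding genes. Together they had 222 (ER), 283 (EE) and 209 (SH) scaled counts, with a sum ratio of 1.35 in EEvSH (1.13 to 1.63), 1.06 in ERvSH (0.872 to 1.29) and 0.782 in ERvEE (0.651 to 0.938). Over all coding genes at that level the EEvSH sum ratio was 1.02 (1.01 to 1.03). The 4 potassium channel genes of this level that met the size rule as higher in EEvSH are part of their sum. They make up most of its gap between EE and SH. Besides Kcnh8 and Kcne4, the genes of this level that met the size rule in EEvSH were Kcnj15 and Kcnn4. Kcnj15, an inward rectifier gene best known from kidney and stomach, had 6.15 (ER), 16.5 (EE) and 5.98 (SH) scaled counts, and its EEvSH ratio was 2.77 (1.03 to 8.64). Kcnn4, the intermediate conductance channel of blood and immune cells, had 4 reads in ER, 12 in EE and 3 in SH, and an EEvSH ratio of 4.15 (1.12 to 22.9).

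Some lists of markers, of other cells and of a neighbouring region, were higher in EE as well. The list of striatal and central amygdala genes, which mark tissue next to the BLA, had 20 measured genes. They summed to 21042 (ER), 23505 (EE) and 21251 (SH) scaled counts. In EEvSH 12 of them were higher, 5 by the size rule, and 2 lower. Over all coding genes 9.27% were higher in EEvSH, 1.19% by the size rule, and 8.94% lower. Intervals narrow with more reads, so lists of abundant genes tend to hold more calls. The 19 interneuron markers summed to 61667 (ER), 65745 (EE) and 60634 (SH), with 10 higher and 1 lower in EEvSH. The 16 oligodendrocyte and myelin markers summed to 139786 (ER), 144502 (EE) and 128907 (SH), with 11 higher in EEvSH, 10 higher in ERvSH and 0 lower in either. In ERvSH 7.59% of all coding genes were higher and 7.89% lower. No marker of these lists was at 0 in a library. The 5 measured blood markers summed to 4024 (ER), 4446 (EE) and 3152 (SH), with 3 higher and 0 lower in EEvSH and Slc4a1 at 0 in a library. The part of these cells in the values of Kcnh5, Kcnh8, Kcnk2, Kcnv1, Kcnh1, Kcna6, Kcnn4 and the other genes that were highest in EE was not tested. The 14 glutamatergic markers summed to 149622 (ER), 149270 (EE) and 150350 (SH), with 6 higher and 5 lower in EEvSH and 3 higher and 6 lower in ERvEE. In ERvEE 6.47% of all coding genes were higher and 6.50% lower. The sums of the other cell type lists were not above SH in EE beyond counting error. The EEvSH sum ratio was 0.961 (0.941 to 0.981) for microglia and 1.002 (0.995 to 1.01) for astrocyte markers. It was 1.02 (0.991 to 1.05) for endothelial and pericyte and 0.924 (0.822 to 1.04) for choroid plexus and ependymal markers.

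Of 23 genes for proteins that bind potassium channels, 21 were measured. Of these EEvSH had 3 higher and 4 lower, ERvSH 3 higher and 2 lower, and ERvEE 3 higher and 1 lower, with 0 past the size rule in any contrast and medians of 0.00 on the log2 scale. Amigo2, a relative of the Kv2 partner Amigo1, was lowest in EE, at 342 (ER), 262 (EE) and 382 (SH) scaled counts, with an EEvSH ratio of 0.684 (0.581 to 0.804) and an ERvEE ratio of 1.31 (1.11 to 1.54). Dpp6, which with KChIPs completes the Kv4 complex, was highest in SH, as Kcnip2 was, at 11891 (ER), 12154 (EE) and 12601 (SH), and its ERvSH ratio was 0.944 (0.920 to 0.968). Adam22, which binds Kv1 channels on axons through a scaffold, was higher in ER than in SH, as Kcna2 was, at 1421 (ER), 1302 (EE) and 1223 (SH), with a ratio of 1.16 (1.08 to 1.26). Abcc9, the regulatory partner of Kcnj8, did not share its order: it had 431 (ER), 489 (EE) and 417 (SH), and was higher in EE than in SH (1.17, 1.03 to 1.34).

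Some of these genes overlap others. By RefSeq gene spans of the GRCr8 assembly, 11 of the 86 genes overlap another coding gene, among them Kcnk2, Kcnh3, Kcnh7, Kcnab2, Kcnj9 and Kcnv2, and Kcnip1 and Kcnmb1 overlap each other. The library kit keeps the strand, but the counting setting is not given in the sources used here, so reads of such partners may have been counted for these genes.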

How the data were processed

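The deposited table held 1 column of normalised signal per library: reads that the authors divided by a size factor for each library. Polyadenylated RNA was sequenced with a stranded kit. The submitters' processing notes name HISAT2 for alignment and DESeq2 for scaling, with versions, genome build and counting setting not given in the sources used here. Within a library the deposited values were multiples of 1.0258 (ER), 1.0339 (EE) and 0.995841 (SH), the value of 1 read, and dividing by it gave a whole number, to within 0.001 of a read, for 100% of values. Reads were recovered from these steps. A count test was not run on them, because each of the 3 conditions had 1 library. The table had 0 columns of samples outside this design.

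Ratios carry no pseudocount; log2 ratios carry a pseudocount of 1, which pulls genes with few reads toward 0. Intervals are exact 95% binomial (Clopper-Pearson) intervals from the recovered reads. Intervals and floors cover counting error alone, since reads lack molecular identifiers and several can stem from 1 molecule. A count of 0 was taken to allow up to 3 reads. The procedure was tested on simulated data.

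The potassium channel genes, the 11 lists and the size rule were chosen with earlier results of these data known. Genes were to be named where they met the size rule, had 1 of the 5 highest or lowest ratios in a contrast at a mean of at least 50, were among the 3 genes with the highest mean in their class, or stood on a list of 40 genes, of which 39 were measured; this gave 61. The other genes named were picked after their values were seen, because their intervals left out 1 or because they belong beside a named relative. A few of the 86 genes are counted in the totals, sums and class plots but their own values are not reported here. Symbols were those of the table. Alternatives were scaling by library totals, edgeR TMM and upper quartile, other filters, pseudocounts of 0.5 and 5, folds of 1.25 and 2, the ratio alone, and class sums without the top gene; those for the partner genes were chosen after seeing the data. Python 3.11.15, numpy 2.4.6, pandas 2.3.3, scipy 1.17.1, matplotlib 3.10.9, R 4.3.3 and edgeR 4.0.16 were used.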

Additional observations from a re-analysis of the deposited data

Results flagged for a closer look

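Both Kcn genes left out of the comparisons had reads above the 3 that a count of 0 allows. Kcne2, an auxiliary subunit gene known from choroid plexus and stomach, had 60 reads in ER, 41 in EE and 54 in SH. Kcnj13, an inward rectifier gene of the choroid plexus, had 0 reads in ER, 3 in EE and 7 in SH, so the SH library alone went above that limit. The choroid plexus gene Ttr had 0 (ER), 4.14 (EE) and 79.7 (SH) scaled counts, and the 8 measured choroid plexus and ependymal markers summed to 501 (ER), 575 (EE) and 622 (SH). Their part in the values of Kcne2 and Kcnj13 was not tested.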

How the results depend on the processing

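Of 159 values of the main results under alternatives, 147 stayed within their limits and 12 moved. All 915 ratios of the named genes stayed within the counting interval of the value reported, though ratios close to 1 could change side. That was close to given, because these ratios were varied only by scalings that barely differ and by the pseudocount. Counts past the size rule depended on the filter. In EEvSH the count of 5 became 3 with a mean of at least 10, 1 with a mean of at least 50 and 9 without the interval. In ERvSH the count of 1 became 0 with a mean of at least 10 or 50, 4 when 25% sufficed and 6 without the interval. In ERvEE the count of 1 became 2 with library totals, which added Kcnj15, 0 with a mean of at least 50, 2 when 25% sufficed and 7 without the interval. The EEvSH sum ratio of the two-pore genes, 1.02, was 1.06 without Kcnk1. Scaling moved log2 ratios by at most 0.005, after which the interval of Kcna6 in ERvSH (library totals), and of Kcnh3 in EEvSH and Kcnk1 in ERvSH (TMM), included 1. No paired analysis was possible because each condition has 1 library, and for the same reason no library could be left out. Depth limits the 16 genes with a mean under 50, whose intervals are wide, and nothing here measures the spread between rats or pools.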
